A study of Homo sapiens with 9 samples.

Results

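The RNAs described here are the primary microRNAs and small RNAs of a 2-colour epitranscriptomic array, that is, the RNA probes whose identifiers begin with ASHG38SM1. These small RNA probes numbered 3813 of the 60541 RNA probes on each array. Most of the others (50802) belonged to the series that begins with ASHG19AP1, which serves below as the comparison set. The files paired none of the 3813 identifiers with an RNA name, a sequence or a position. The class name therefore rests on the identifier series and on 1 probe, that of pri-3-hsa-mir-378a, which could be identified. PC9 cells, a human lung adenocarcinoma line, were cultured for 24 h and transfected with siRNA at 15 nM, and total RNA was taken 96 h later. The 3 groups were a control siRNA (siControl) and the ALKBH5 siRNAs siALKBH5#1 and siALKBH5#3, with 3 biological replicates and 1 array each. Unfragmented RNA was separated with an antibody against N6-methyladenosine (m6A) into an immunoprecipitated fraction (IP, Cy5) and the supernatant (Sup, Cy3), and the same amount of calibration RNA (spike-in) was added to both.

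A primary microRNA is the long first transcript of a microRNA gene. Drosha and its partner DGCR8 crop a hairpin out of it, and Dicer then cuts the hairpin to the mature microRNA, whose seed (bases 2 to 8) pairs with target mRNAs. The METTL3 complex places m6A on many RNAs, mostly within the letters GGAC and near variants, and m6A on primary microRNAs has been linked to DGCR8 binding. ALKBH5 is a nuclear enzyme that removes m6A, so the comparison asks how the IP share of these RNAs stood after each siRNA.

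RefSeq sequences are shown for microRNA 378a, because it was the only RNA of the set that could be named. The MIR378A hairpin lies at chr5:149732825-149732890 on the plus strand of GRCh38.p14, inside the PPARGC1B gene, which codes for a transcriptional coactivator of mitochondrial metabolism. In the 66-base hairpin the capitals mark GGAC, found once, at bases 46 to 49, where it overlaps the seed of the 3p arm. In the mature microRNAs the capitals mark the seed.
MIR378A hairpin: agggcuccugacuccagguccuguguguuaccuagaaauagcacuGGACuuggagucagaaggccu
hsa-miR-378a-5p: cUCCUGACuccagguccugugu
hsa-miR-378a-3p: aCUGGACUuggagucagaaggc
hsa-miR-378c: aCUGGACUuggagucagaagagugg
hsa-miR-378f: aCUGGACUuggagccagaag
The last 3 share a seed. At least 6 mature microRNAs of other genes in the RefSeq table carry it, since that count did not cover every chromosome. On the transcript strand, GGAC was found in 427 of 1562 RefSeq hairpins (27.3%) and GGACU in 138 (8.83%), so its presence does not set this hairpin apart. A match of letters is a description and not a methylated site, and which stretch of the primary transcript the probe reads is not given in the sources used here.

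The array labelled siALKBH5#1 replicate 3 stood apart from the other 8. Its mean log2 spike-in signal was 12.2 in Sup and 11.8 in IP, the highest of all, against 8.57 to 10.5 and 6.75 to 10.5 elsewhere. Each signal below is given as a percent of the mean spike-in signal of its own channel and array, so this array's values were low. Results that rest on it are given with and without it. The array siALKBH5#1 replicate 1 was scanned apart from the rest. The share of all RNA probes well above background (the scanner software's own mark) ran from 67.1% to 86.5% in Sup and from 37.5% to 56.9% in IP. None of the 9 genes looked for to check the knockdown and the cell type (ALKBH5, EPCAM, KRT18, KRT19, CDH1, EGFR, PTPRC, COL1A1 and PECAM1) was among the 50 probes that carry a RefSeq name, so neither was checked on these arrays. The number of arrays, 3 per group, limits the precision of every value.

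On an average array 58.7% of the small RNA probes were well above background in Sup and 25.5% in IP. In siControl, the Sup share well above background was 64.6%, 58.2% and 58.9% on the 3 arrays, with siALKBH5#1 it was 54.6%, 47.2% and 69.5%, and with siALKBH5#3 it was 62.7%, 57.8% and 54.8%. The IP share was 20.6%, 23.0% and 28.9% in siControl, 27.3%, 18.6% and 24.5% with siALKBH5#1, and 28.0%, 34.6% and 23.6% with siALKBH5#3. The arrays of the 3 groups overlapped in both fractions. The group means of the IP share were 24.2% ± 4.28 (SD, n = 3), 23.5% ± 4.46 and 28.7% ± 5.54, and no difference from siControl passed the exact two-sided permutation test in either fraction (p = 0.4 to 0.8, adjusted p = 0.8). With 3 against 3 arrays that test cannot give a p below 0.1.

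The small RNA probes were detected less often than the AP1 probes on every array. AP1 probes were well above background at 71.3% to 89.6% in Sup and 41.2% to 61.5% in IP. Negative control spots, of which each array held 180, carried the same mark at 10.0% to 47.8% in Sup and 2.78% to 12.2% in IP, the highest Sup share being on siALKBH5#1 replicate 3. The mark alone is therefore not proof of a transcript. Seen over all 9 arrays, 1768 small RNA probes (46.4%) were well above background in Sup on every array, against 70.3% of AP1 probes, and 564 (14.8%) in both fractions on every array, against 36.6%. The smaller ASHGV4 series of RNA probes stood close to the small RNAs, at 41.5% in Sup and 13.7% in both fractions. Of the negative control spots, 17 of 180 passed in Sup and 5 in both fractions on every array. At the other end, 949 small RNA probes (24.9%) were well above background in neither fraction on any array, against 7.84% of AP1 probes, and 2289 (60.0%) had no array with such a signal in IP.

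**Figure D1:**
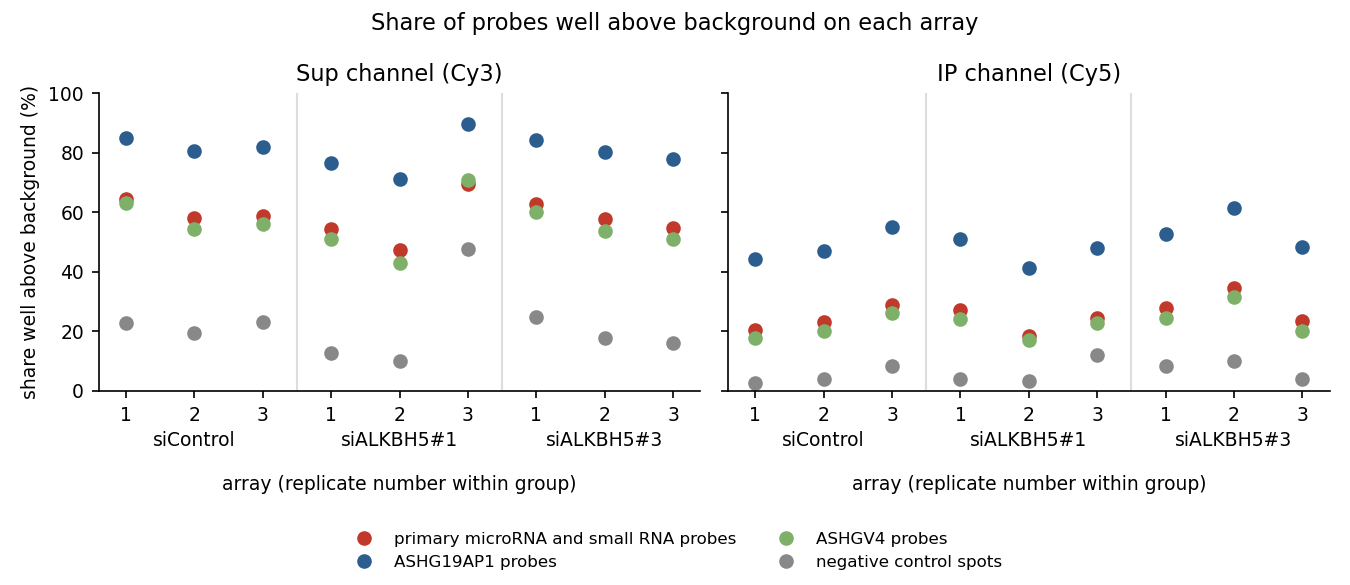
Share of probes well above background (percent of the probe set, vertical axis) on each of the 9 arrays, for Sup and IP, for the small RNA probes, the AP1 probes, the smaller ASHGV4 series of RNA probes and the negative control spots. The small RNA probes sat below the AP1 probes on every array, at 47.2% to 69.5% in Sup and 18.6% to 34.6% in IP, and the groups of arrays overlapped.

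Among probes seen in Sup on every array, the small RNAs still had an IP signal less often than AP1 probes, but not than ASHGV4 probes. Of the 1768 small RNA probes, 31.9% were also well above background in IP on every array and 22.9% (405 probes) on none. The shares were 52.1% and 12.1% for AP1 probes and 32.9% and 23.4% for ASHGV4 probes, so a low IP share was not particular to the small RNAs. AP1 probes are brighter as a set, so they were weighted to the distribution of mean Sup signal of the 1755 small RNA probes with at least 2 values per group, in bins of 0.5 log2 units. The share with an IP signal was then 39.1% to 71.7% per array for the small RNA probes and 44.9% to 77.0% for the matched AP1 probes. It was lower for the small RNAs on 9 of 9 arrays, by 5.48 percentage points on average (SD 1.03, range 3.41 to 6.79). The gap lay among dim probes. Between 3.12% and 4.42% of spike-in in Sup, 192 small RNA probes had an IP signal in 55.7% of measurements, against 63.2% for AP1 and 51.7% for ASHGV4 probes. In the bins from 50% upwards that held 20 or more small RNA probes, each of these had one on every array. Probes are not replicates, so these gaps are descriptions with no p.

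**Figure D2:**
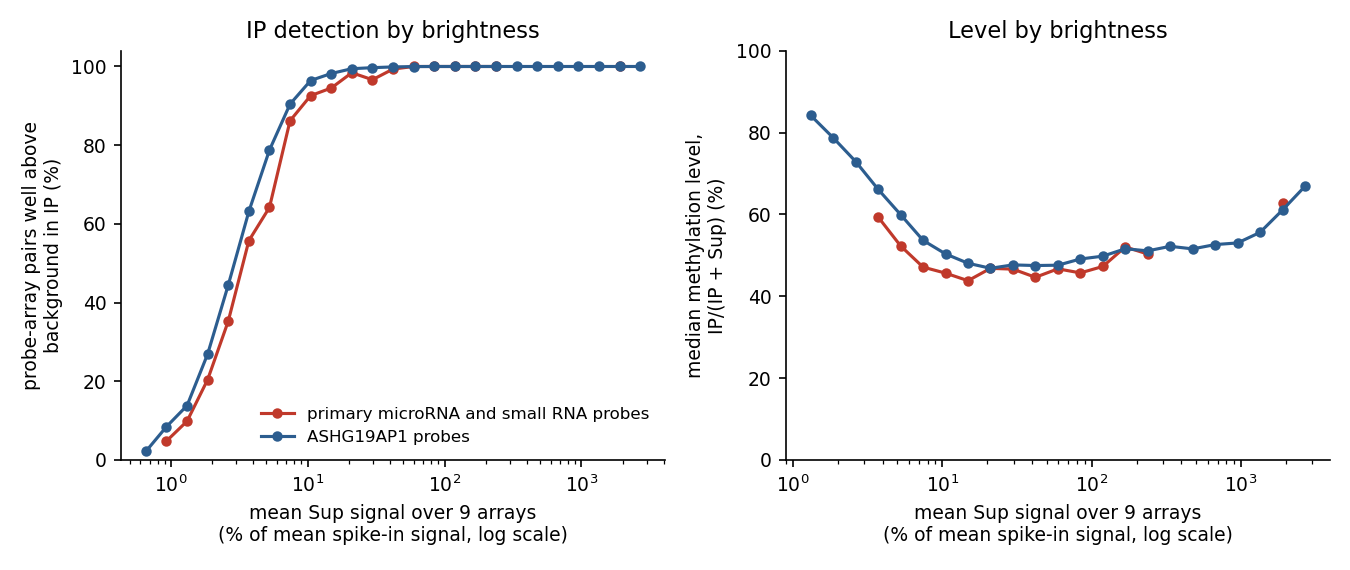
Share of probes well above background in IP (percent) and median methylation level (percent) against mean Sup signal (percent of spike-in, log axis, bins of 0.5 log2 units with at least 20 probes), for small RNA and AP1 probes. At low Sup signal both curves of the small RNA probes ran below those of the AP1 probes. In IP it was 55.7% against 63.2% between 3.12% and 4.42% of spike-in, and the IP curves met at high signal. The level curves did not close steadily, with 45.7% against 49.1% between 70.7% and 100% and 52.1% against 51.6% between 141% and 200%.

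The methylation level, IP/(IP + Sup) of the spike-in-scaled signals, could be tested for 552 of the 3813 small RNA probes. These were the 564 with a signal in both fractions on all 9 arrays, less 12 that kept fewer than 2 values in some group after spots marked as outliers were left out. They are bright probes, and what is said of their levels does not cover the rest of the 3813. Their mean levels ranged from 6.26% to 86.9%, with a median of 48.7% and the middle 50% between 41.9% and 57.3%. The median was 52.1% for AP1 probes and 49.5% for ASHGV4 probes. High levels were less common among the small RNAs, where 30 probes (5.43%) lay above 70% against 13.0% of AP1 and 8.02% of ASHGV4 probes. Below 30% lay 26 (4.71%), against 3.87% and 4.71%. These percentages depend on the spike-in scale: the siControl median, 46.9% with the 13 spike-in probes measured in both channels on every array, was 32.4% with no scaling. It was 6.54% with Sup scaled to the 41 spike-in probes measured in Sup on every array and IP still to 13, so the channels then had unlike sets. Order among RNAs on 1 array does not depend on it.

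Few small RNAs kept to one side of 50% on every array. Of the 453 probes with a value on all 9 arrays, 61 (13.5%) were above 50% on each and 86 (19.0%) below, against 19.7% and 18.3% of AP1 probes, and the remaining 306 crossed it. Above 70% on all 9 arrays stayed 7 probes (1.55%, against 1.40% of AP1 probes), and below 20% stayed 5 (1.1%, against 0.0682%). The spread among probes was an SD of 12.5 points, against a median SD between replicate arrays of 4.89 points in siControl, 8.41 with siALKBH5#1 and 4.13 with siALKBH5#3. The rank correlation of levels between 2 arrays, over probes that share their spots and spike-in scale, was 0.335 to 0.929 in the 28 pairs without siALKBH5#1 replicate 3 and 0.102 to 0.860 in the 8 pairs with it.

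The highest mean level belonged to ASHG38SM110001902011, with 89.8%, 87.3% and 80.6% in siControl, 92.1%, 92.1% and 71.8% with siALKBH5#1, and 89.1%, 86.9% and 92.1% with siALKBH5#3. The lowest of these was siALKBH5#1 replicate 3, and the log2 change of the level was -0.02 ± 0.13 SE with siALKBH5#1 and 0.06 ± 0.13 with siALKBH5#3, neither past the threshold given below. The brightest probe in Sup, ASHG38SM110003355211, averaged 2986%, 3916% and 3336% of the spike-in signal in the 3 groups and had levels of 68.8% to 84.2%. Level and brightness did not run in 1 direction. Sorted by Sup signal into 4 sets of 138, the probes had median levels of 49.3%, 44.6%, 46.4% and 55.2% from dimmest to brightest. A dim probe enters the test only if its IP signal is well above background, which by construction removes low levels at that end.

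Set beside AP1 probes weighted in the same way, in 23 bins, the small RNAs had slightly lower levels. The median level of the small RNA probes was 46.9%, 47.6% and 46.2% in siControl, 53.3%, 52.9% and 44.9% with siALKBH5#1, and 48.7%, 47.9% and 51.5% with siALKBH5#3. The matched AP1 medians were 53.5%, 52.2% and 48.9%, then 56.6%, 54.9% and 44.4%, then 53.1%, 53.4% and 54.7%. The small RNA median was lower on 8 of 9 arrays, the exception being siALKBH5#1 replicate 3, and the mean difference was -3.53 points (SD 2.07 over 9 arrays). The gap was widest among dim probes but did not shrink steadily with brightness. Between 6.25% and 8.84% of spike-in the median was 47.1% against 53.7%, and between 17.7% and 25% it was 46.8% against 46.8%. Between 70.7% and 100% it was 45.7% against 49.1%, and between 141% and 200% it was 52.1% against 51.6%. ASHGV4 probes had 49.0%, 43.2%, 47.9% and 53.9% in these bins, above the small RNAs in all but the second. Without weighting, the group means of the ASHGV4 medians were 48.2%, 50.7% and 49.5%, against 51.4%, 51.8% and 53.5% for AP1 probes. A level below that of AP1 probes was thus not particular to the small RNAs. The siControl arrays lay close together and the siALKBH5#1 arrays spread widest, and the group means of the small RNA medians were 46.9% ± 0.672 (SD, n = 3), 50.3% ± 4.76 and 49.3% ± 1.87. No test was run on these medians.

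**Figure D3:**
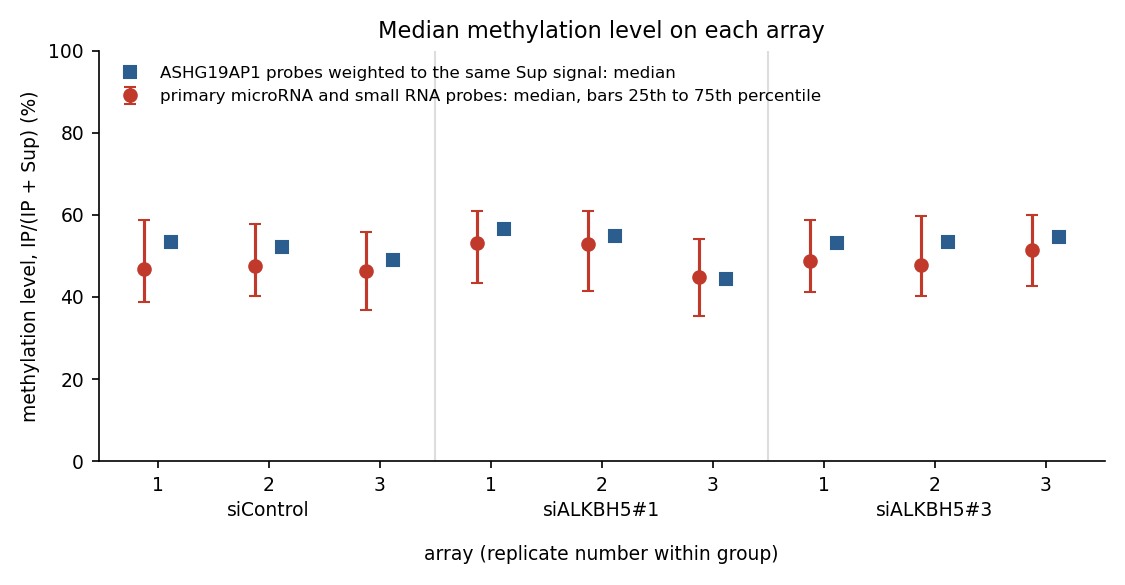
Median methylation level (percent) of the small RNA probes on each array, by group, with bars from the 25th to the 75th percentile of probes, beside the median of AP1 probes weighted to the same Sup signal. The small RNA medians ran from 44.9% to 53.3% and were below the matched AP1 medians on every array but siALKBH5#1 replicate 3.

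With siALKBH5#1, 2 of the 552 small RNA levels passed the threshold of the study's methods (a fold change above 1.5 or below its inverse with unadjusted P below 0.01, here by limma), both higher than siControl, and none was lower. Over all 19779 RNA probes tested, 0.228% were called higher and 0.0202% lower. No RNA of any kind reached an adjusted P below 0.05, the smallest being 0.971. With the replicate number as a block in a fit of only these groups, chosen after seeing the data, 4 small RNA levels were called higher and 1 lower. These were 0.719% and 0.180% of 556, against 0.428% and 0.181% of all 19877 probes. In that fit 20 RNA probes, none of them a small RNA, had an adjusted P below 0.05. At an unadjusted P below 0.05, 52 small RNA levels (9.42%) differed, against 5.1% of all. The siALKBH5#1 arrays did not overlap siControl for 59 small RNAs that were higher (10.7%, against 6.2% of all) and 35 that were lower (6.34%, against 4.56%). The median log2 change was 0.04 for the small RNAs and 0.00 for all. It turned to -0.14 and -0.18 with no scaling, and to -0.08 and -0.17 with Sup scaled to 41 spike-in probes and IP to 13. The median SE of a small RNA level was 0.17 on the log2 scale.

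Much of this count hung on 1 array and on the scale. Without siALKBH5#1 replicate 3, 39 small RNA levels (6.79%) were called higher and 10 (1.74%) lower, against 3.37% and 0.616% of all probes, and 71 of 574 (12.4%, against 6.48%) had an adjusted P below 0.05. When that array was also left out but every array was centred on its median RNA probe in place of the spike-ins, 11 were called higher (1.92%, against 0.562% of all) and 32 lower (5.57%, against 2.91%), and 0 passed the adjusted P. The direction of the larger share of these calls thus turned with the scaling, for the small RNAs as for all probes. The second of these settings was chosen after seeing the data. In both, the siALKBH5#1 group rested on replicates 1 and 2, and replicate 1 was scanned apart from all other arrays. The part of the scan in these counts was not tested.

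Both levels that passed with siALKBH5#1 were very low ones. ASHG38SM110001182711, the lowest mean level of the set, had 4.71%, 5.12% and 3.48% in siControl, 9.79%, 5.36% and 9.16% with siALKBH5#1, and 6.99%, 5.91% and 5.79% with siALKBH5#3. The groups did not overlap siControl, although siALKBH5#1 replicate 2 was close to its highest array. The log2 change was 0.84 ± 0.23 SE with siALKBH5#1 (limma, adjusted P = 0.971) and 0.50 ± 0.23 with siALKBH5#3, which did not pass. ASHG38SM110002907611 had 4.98%, 5.67% and 6.57%, then 12.7%, 6.91% and 11.8%, then 9.14%, 7.66% and 8.90%. Here too every siRNA array was above every siControl array, with a log2 change of 0.82 ± 0.22 (adjusted P = 0.971) with siALKBH5#1 and 0.58 ± 0.22, short of the threshold, with siALKBH5#3. Each call rested on single arrays: for ASHG38SM110001182711 the change was 0.67 without siControl replicate 3 and 0.68 without siALKBH5#1 replicate 1, and for ASHG38SM110002907611 it was 0.73, 0.82 and 0.66 without siControl replicate 1, siControl replicate 2 or siALKBH5#1 replicate 1, none of which passed. These probes also had nearly the same Sup signal on each array, for instance intensities of 3425 and 3308 in siControl replicate 1 and 2925 and 2846 in replicate 2. Whether they read the same RNA cannot be told from the identifiers, and they are not counted as independent support for each other.

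With siALKBH5#3, none of the 552 levels passed the threshold of the methods, against 0.111% of all probes called higher and 0.0202% lower. In numbers, 17 levels (3.08%) had an unadjusted P below 0.05 by limma, against 2.23% of all, and none an adjusted P below 0.05. The arrays did not overlap siControl for 64 small RNAs that were higher (11.6%, against 10.3% of all) and 6 that were lower (1.09%, against 1.67%). The median log2 change was 0.06 for the small RNAs and 0.05 for all. Between the siRNAs themselves, no small RNA level passed (0.0152% of all were higher and 0.0455% lower with siALKBH5#3). Without siALKBH5#1 replicate 3, 9 were called higher (1.57%, against 0.365% of all) and 2 lower (0.348%, against 0.394%), with 0 at an adjusted P below 0.05. The log2 difference of siALKBH5#3 from siALKBH5#1 was -0.34 ± 0.23 SE for ASHG38SM110001182711 and -0.24 ± 0.22 for ASHG38SM110002907611.

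Few amounts of the small RNAs passed the threshold. Abundance, log2(IP + Sup), was tested for the same 552 probes. Of these, 2 were called higher and 1 lower with siALKBH5#1 (all probes 0.187% and 0.0758%), and 0 higher and 2 lower with siALKBH5#3 (0.258% and 0.111%). The Sup signal alone could be tested for 1755 small RNA probes. With siALKBH5#1, 1 was called higher and 0 lower (0.068% and 0.0353% of 39710), and with siALKBH5#3, 2 were called higher and 2 lower (0.189% and 0.0579%). None of these had an adjusted P below 0.05. At an unadjusted P below 0.05 there were 12 small RNAs (2.17%, against 1.73% of all) by abundance with siALKBH5#1 and 6 (1.09%, against 1.42%) with siALKBH5#3. By Sup signal there were 8 with each siRNA (0.456%, against 0.529% and 1.12% of all). The abundance did not overlap siControl for 25 small RNAs that were higher with siALKBH5#1 (4.53%, against 4.09% of all) and 17 that were lower (3.08%, against 2.14%), and for 57 (10.3%, against 11.1%) and 20 (3.62%, against 2.59%) with siALKBH5#3. In Sup these were 25 (1.42%, against 1.75%) and 23 (1.31%, against 1.06%) with siALKBH5#1, and 124 (7.07%, against 10.2%) and 28 (1.60%, against 2.15%) with siALKBH5#3. Between the siRNAs, 2 abundances were higher and 3 lower with siALKBH5#3 (0.42% and 0.44% of all), and 0 and 1 Sup signals (0.353% and 0.146%). Without siALKBH5#1 replicate 3 these were 28 and 21 abundances (4.88% and 3.66%, against 2.84% and 5.86% of all) and 19 and 43 Sup signals (1.09% and 2.46%, against 1.24% and 3.51%). At an adjusted P below 0.05 were 15 abundances (2.61%, against 2.71% of all) and 18 Sup signals (1.03%, against 1.00%), shares near those of all probes. The median SE was 0.56 for a log2 abundance and 0.61 for a log2 Sup signal, so a 1.5-fold change was about as large as 1 SE.

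Here too the scale decided the count. The median log2 change of the Sup signal was -0.23 for the small RNAs and -0.15 for all probes with siALKBH5#1, and 0.09 and 0.12 with siALKBH5#3. These directions rested on single arrays and on the scale. With siALKBH5#1 the medians were 0.38 and 0.39 without siALKBH5#1 replicate 3 and 0.08 and 0.10 without siControl replicate 1. With siALKBH5#3 they were -0.20 and -0.11 without siControl replicate 3, and -0.08 and -0.05 with no scaling. With every array centred on its median RNA probe, 7 small RNAs were called higher and 13 lower in Sup with siALKBH5#1 (0.399% and 0.741%, against 1.26% and 0.834% of all). With siALKBH5#3, 25 were called higher and 17 lower (1.42% and 0.969%, against 2.44% and 1.25%). At an adjusted P below 0.05 were 3 small RNAs with siALKBH5#3 (0.171%, against 0.305% of all). Without siALKBH5#1 replicate 3 on the spike-in scale, 63 were called higher and 20 lower with siALKBH5#1 (3.61% and 1.15%, against 4.89% and 0.751% of all). With siALKBH5#3 there were 20 and 4 (1.15% and 0.229%, against 2.39% and 0.365%). With each siRNA 4 were at an adjusted P below 0.05 (0.229%, against 0.563% of all with siALKBH5#1 and 0.497% with siALKBH5#3). In abundance, leaving out that array gave 45 higher and 30 lower with siALKBH5#1 (7.84% and 5.23%, against 9.65% and 2.32% of all). With siALKBH5#3 it gave 9 and 3 (1.57% and 0.523%, against 2.88% and 0.453%). At an adjusted P below 0.05 were 13 with siALKBH5#1 (2.26%, against 2.04% of all) and 2 with siALKBH5#3 (0.348%, against 0.236%).

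**Figure D4:**
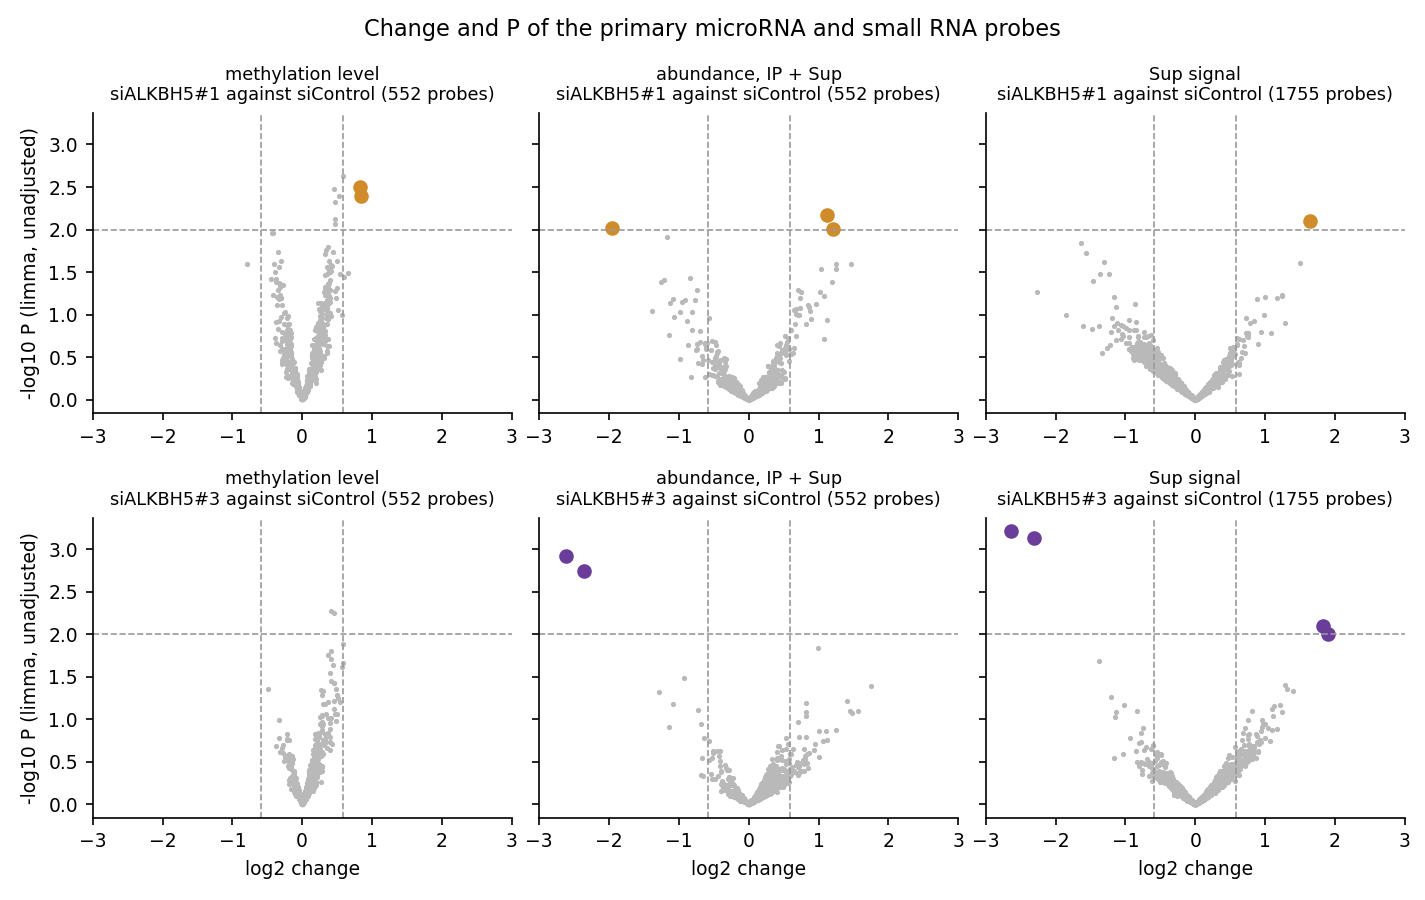
Log2 change (horizontal axis) and -log10 of the unadjusted limma P (vertical axis) of each tested small RNA probe, for methylation level, abundance and Sup signal with siALKBH5#1 (top) and siALKBH5#3 (bottom) against siControl. Dashed lines mark the 1.5-fold change and the unadjusted P threshold of 0.01, and large coloured points passed both: 2 and 0 levels, 3 and 2 abundances, and 1 and 4 Sup signals.

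The probes named in this and the following paragraphs as lower or higher with siALKBH5#3 were picked as called probes without overlap with siControl. Their lack of overlap is therefore part of the choice and adds no support. The probes that were lower with siALKBH5#3 were among the brighter ones. ASHG38SM110008820011 had Sup signals of 590%, 1041% and 939% of spike-in in siControl, 483%, 1032% and 373% with siALKBH5#1, and 122% and 147% on siALKBH5#3 replicates 2 and 3. Its replicate 1 spot carried the outlier mark and was left out. The siALKBH5#3 values lay below all others, with a log2 change of -2.64 ± 0.57 SE (limma, adjusted P = 1.0). The change was -2.15 with the marked spot kept, at a value of 368%, still below siControl and close to the 373% of siALKBH5#1 replicate 3. Against siALKBH5#1 the log2 change was -2.09 ± 0.57, which also passed the threshold, though not without siALKBH5#1 replicate 2 (-1.67), with the marked spot kept (-1.61), by the methods' t-test, or with a replicate block in a fit of only these groups (-2.21). Its IP signal was lower too, at 117% and 105% against 295%, 838% and 1087% in siControl, and the log2 change of its level was 0.07 ± 0.25.

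ASHG38SM110011322111 was lower with both siRNAs. Its Sup signal was 130%, 174% and 129% of spike-in in siControl, 28.7% and 73.7% on siALKBH5#1 replicates 1 and 2, and 43.6%, 22.1% and 25.3% with siALKBH5#3, and no siRNA array reached the siControl range. The siALKBH5#1 replicate 3 spot carried the outlier mark. The log2 change of the Sup signal was -2.30 ± 0.51 SE (adjusted P = 1.0) with siALKBH5#3 and -1.64 ± 0.57 with siALKBH5#1, the latter short of the threshold. By abundance both passed, at -2.36 ± 0.52 and -1.95 ± 0.58, and with the marked spot kept the siALKBH5#1 value was -1.56 and no longer passed. It also did not pass without siControl replicates 1, 2 or 3 (-2.11, -1.77 and -1.98), although its size changed little, and the siALKBH5#3 abundance did not without siALKBH5#3 replicate 2 (-2.17). The Sup calls of both probes with siALKBH5#3 kept their direction and passed the threshold under each of the 22 alternative settings that gave them a value. Neither had a value when probes with any outlier mark were left out. Nor had ASHG38SM110008820011 without siALKBH5#3 replicate 2 or 3, so whether its call rests on either array was not tested. ASHG38SM110011322111 had none without siALKBH5#1 replicate 1 or 2. Between the siRNAs, the log2 difference of ASHG38SM110011322111 in Sup was -0.67 ± 0.57, short of the threshold.

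The Sup signals that were higher with siALKBH5#3 were dim by comparison. ASHG38SM110002435711 had 4.81%, 5.13% and 3.88% of spike-in in siControl, 7.42%, 15.0% and 2.51% with siALKBH5#1, and 18.6%, 15.4% and 15.0% with siALKBH5#3. All siALKBH5#3 arrays were above siControl, while those of siALKBH5#1 spread across both ranges. The log2 change was 1.83 ± 0.58 SE (adjusted P = 1.0). ASHG38SM110006009211 had 1.32%, 0.828% and 0.480%, then 1.34%, 1.43% and 0.284%, then 2.98%, 2.73% and 3.37%, with a log2 change of 1.90 ± 0.63 SE (adjusted P = 1.0). It was near background throughout, and its IP signal was well above background on the 3 siALKBH5#3 arrays and on no other. Neither call held when single arrays were left out: ASHG38SM110002435711 passed in none of the fits without siControl replicates 1, 2 or 3 or siALKBH5#3 replicates 1, 2 or 3 (1.71 to 1.91), and ASHG38SM110006009211 passed of these only without siControl replicate 1. With the normexp correction the changes were 1.13 and 0.52, and without background correction 1.65 and 1.19, none of which passed. The remaining 3 calls were all higher with siALKBH5#1, by 1.64 ± 0.52 on the log2 scale in Sup and by 1.20 ± 0.36 and 1.12 ± 0.32 in abundance.

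The probe of pri-3-hsa-mir-378a, ASHG38SM110009487411, is the primary transcript of a microRNA best known from energy metabolism, whose mature forms are shown above. It was chosen for its reported change, so its levels are given as a description, with no test. It was dim: its Sup signal was 5.90%, 2.66% and 1.09% of spike-in in siControl, 3.09%, 3.08% and 0.723% with siALKBH5#1, and 1.97%, 2.80% and 2.86% with siALKBH5#3. Sup was well above background on all 9 arrays. Its IP signal was 1.87%, 0.382% and 0.559% in siControl, 5.97%, 4.17% and 0.498% with siALKBH5#1, and 1.97%, 2.25% and 4.46% with siALKBH5#3, and was well above background only on siALKBH5#1 replicate 1 and siALKBH5#3 replicates 2 and 3. It was therefore not among the 552 probes with a tested level.

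Computed all the same, the level of pri-3-hsa-mir-378a was 24.0%, 12.5% and 33.8% in siControl, 65.9%, 57.5% and 40.8% with siALKBH5#1, and 50.1%, 44.5% and 61.0% with siALKBH5#3. The computed values of all 6 siRNA arrays lay above those of all 3 siControl arrays, with means of 23.5% ± 10.7 (SD, n = 3), 54.7% ± 12.8 and 51.9% ± 8.36. Only 65.9%, 44.5% and 61.0% of these, however, rest on an IP signal well above background, and the other 6 arrays, 3 of them siRNA arrays, have only an upper limit. With IP set to the lowest signal marked well above background on the same array, the siControl levels would be 45.6%, 50.3% and 46.0%, which reaches past the measured 44.5% of siALKBH5#3 replicate 2. The limits of the siRNA arrays without such a signal would be 71.8% and 46.0% for siALKBH5#1 replicates 2 and 3 and 52.8% for siALKBH5#3 replicate 1. The order of the groups is therefore not settled by these signals. The difference of the computed means from siControl was 31.3 points with siALKBH5#1 and 28.4 with siALKBH5#3. Without background correction it was 10.9 and 7.75 points, and with the normexp correction 7.74 and 4.08. In the deposited levels it was 24.0 and 24.3 points. The log2 change of the Sup signal from siControl did not pass by limma, at -0.44 ± 0.69 SE with siALKBH5#1 and -0.04 ± 0.69 with siALKBH5#3, and with errors of this size a 1.5-fold change either way would not be seen.

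**Figure D5:**
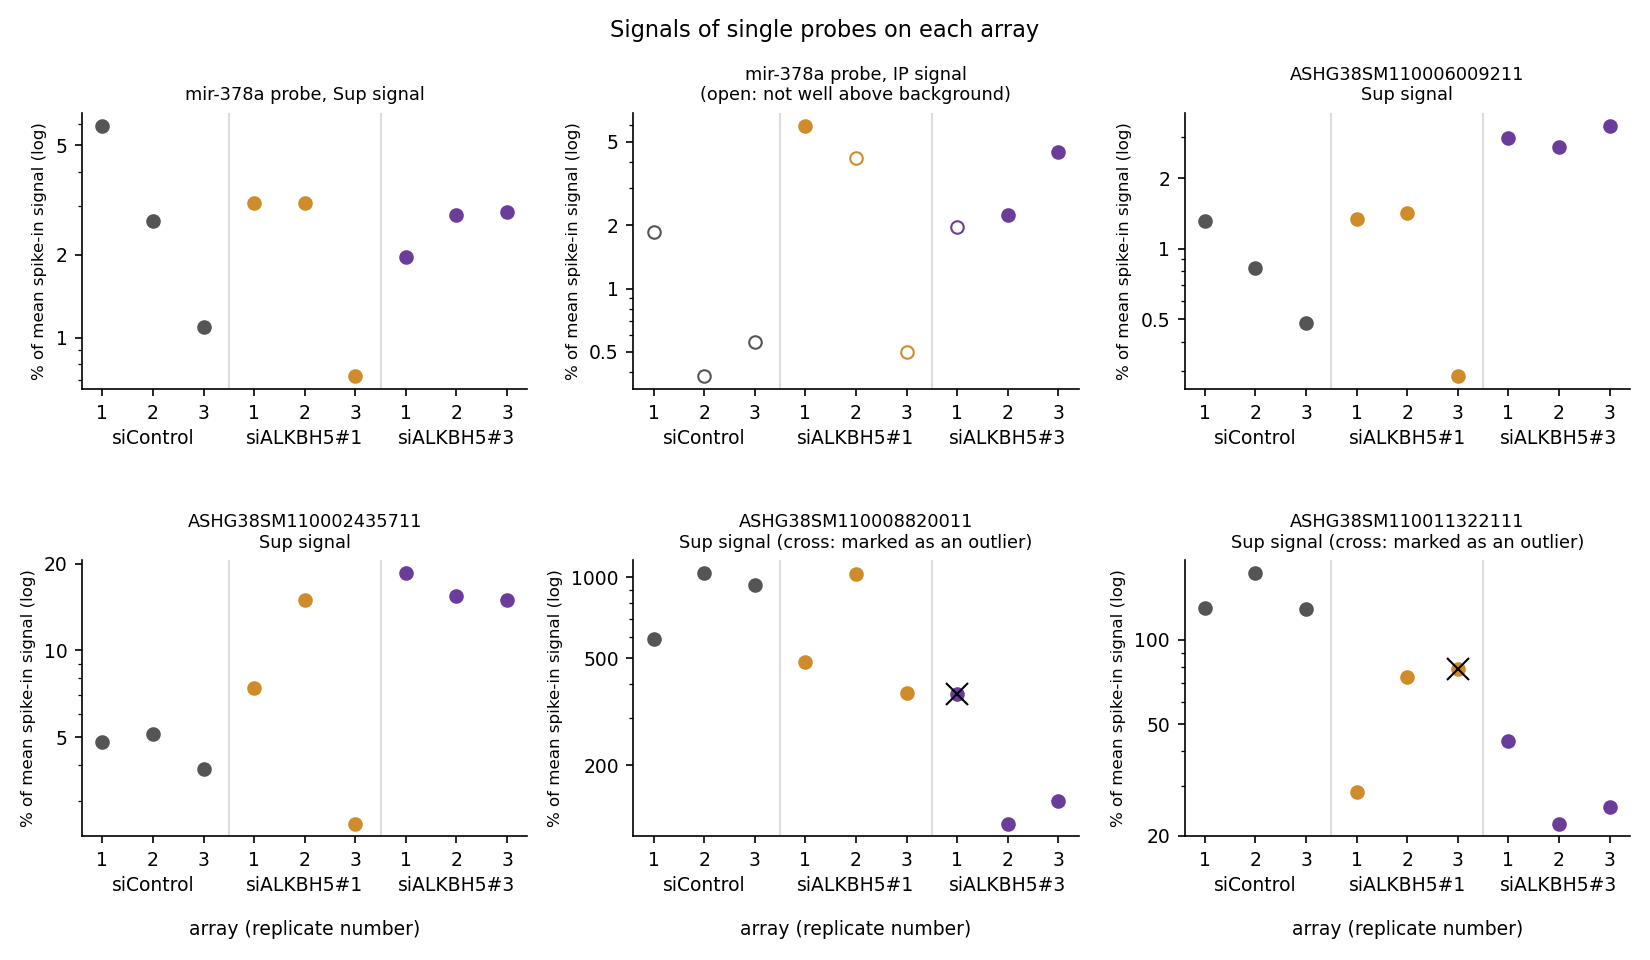
Signal of 5 small RNA probes on each of the 9 arrays (percent of mean spike-in signal, log axis), by group and replicate, each point 1 array. Open circles mark arrays where the IP signal of pri-3-hsa-mir-378a was not well above background, which were the 3 in siControl, siALKBH5#1 replicates 2 and 3 and siALKBH5#3 replicate 1. Crosses mark spots left out as outliers. The siControl and siALKBH5#3 values of the other 4 probes did not overlap, and these probes were chosen for a lack of overlap with siControl.

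Some other small RNA probes had an IP signal in 1 group and not in another. With siALKBH5#3, 22 small RNA probes (0.577%) were well above background in IP on all 3 arrays and on no siControl array, against 0.57% of all RNA probes, and 1 (0.0262%) showed the reverse, against 0.0132%. With siALKBH5#1 the counts were 0 (0.0215% of all) and 4 (0.105%, against 0.165%). The shares in the small RNAs were thus near those of all probes. The 22 were picked by their IP signal, so a higher signal with siALKBH5#3 follows from the rule. The lowest signal marked well above background was taken as the siControl bound. Between group means, the IP signal was then at least 1.09-fold to at least 2.42-fold higher than in siControl. Of the 22, 14 had a bound above 1.5-fold. Their Sup signal had a median log2 change of 0.31. ASHG38SM110006009211 was 1 of them, at least 1.96-fold higher in IP.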

How the data were processed

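The authors deposited 2 kinds of file. The first is 9 scanner files with the background-subtracted intensity of each spot in Cy5 (IP) and Cy3 (Sup), read with Agilent Feature Extraction 11.0.1.1 per the labels. The second is a table of levels that the authors deposited as a fraction of IP in IP + Sup, after scaling to spike-in RNA, which listed 1113 of the 3813 small RNA probes among 30601 RNA probes and was used as an alternative.

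From the intensities, each channel of each array was divided by the mean (log2) of 13 of the 102 spike-in probes, those that every array marked in Cy5 and in Cy3 as well above background, as the study's methods scale to spike-ins. Spots marked as outliers, 3 to 71 small RNA values per array, were set aside, and no small RNA spot was saturated. Levels, abundance and Sup signals of all RNA probes well above background on all 9 arrays (Sup alone for the Sup signal) and with at least 2 values per group were fitted on the log2 scale with limma 3.58.1 in R 4.3.3, over 3 groups with no covariate and Benjamini-Hochberg adjustment over all RNA probes in the fit. Replicate numbers were taken from the labels, which call them biological replicates. Same-numbered siControl and siALKBH5#1 arrays deviated together in level (correlations 0.24 to 0.78 over probes), but siControl and siALKBH5#3 arrays did not (-0.31 to -0.29). Differently numbered siControl and siALKBH5#1 arrays ran from -0.70 to 0.48, which overlaps the same-numbered range, so a pairing is not settled. The numbers were read as pairing the arrays only for the level with siALKBH5#1, and as a block only in alternative fits. Each fit was checked on simulated data.

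Named probes were pri-3-hsa-mir-378a, the highest and lowest level, the highest Sup signal and the levels called with siALKBH5#1. To these were added the 2 called identifiers with the largest rise and the 2 with the largest fall against siControl. They were taken over all measures and both siRNAs together, without overlap of the arrays. The mir-378a probe was found by matching 2 ratios (within 0.001) and 2 P values (within 2e-05) printed by the study to the deposited levels, which 1 of 30601 probes met. The probe set, lists and rules were chosen with earlier results of these data known. Alternatives covered the background correction, scaling, filters, outlier marks, array weights, the replicate block, the methods' t-test and leaving out each array. Sequences are from RefSeq (GRCh38.p14).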

Additional observations from a re-analysis of the deposited data

How the results depend on the processing

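No log2 change of a named probe past the threshold and no mean gap to matched AP1 probes changed sign under any alternative, but the median log2 changes over the small RNA probes did, and the counts past the threshold moved under most. Counts are given in the order level with siALKBH5#1 (2) and siALKBH5#3 (0), abundance with each (3 and 2), and Sup signal with each (1 and 4), and only where they moved by over 1.5 times. Counts over all RNA probes follow in brackets. With the main settings they were 49 and 26 levels and 52 and 73 abundances of 19779, and 41 and 98 Sup signals of 39710. The small RNA probes were 552 and 1755 of these. Without background correction abundance with siALKBH5#1 gave 0 (39) and Sup gave 0 and 2 (25 and 57). Dye-normalized signals gave 1 level with siALKBH5#3 (12), 0 abundances with siALKBH5#1 (48), and 0 and 2 in Sup (21 and 58). The normexp correction gave 0 levels (18) and 0 abundances (26) with siALKBH5#1, and 0 and 2 in Sup (15 and 34). Centring each array on its median RNA probe gave 1 level with siALKBH5#1 (82), 6 and 8 abundances (231 and 344), and 20 and 42 Sup signals (833 and 1464). No scaling gave 0 levels (4) and 1 abundance (27) with siALKBH5#1, 1 abundance with siALKBH5#3 (38) and 6 Sup signals with siALKBH5#1 (133). Scaling Sup to 41 spike-in probes and IP to 13 gave 0 levels with siALKBH5#1 (1), 8 abundances with siALKBH5#3 (434), and 11 and 19 in Sup (486 and 887). A signal on the 3 arrays of 1 group as the filter gave 5 of 747 and 6 of 862 levels (90 of 23774 and 103 of 26052). No filter gave 23 of 3804 and 5 of 3800 levels (231 of 60387 and 90 of 60316), 0 abundances with siALKBH5#1 (6), and 0 and 2 in Sup (22 and 80). Leaving out probes with any outlier mark gave 0 and 0 abundances (21 and 43) and 2 Sup signals with siALKBH5#3 (85). A fit of only the groups compared gave 1 level with siALKBH5#3 (53), 0 and 10 abundances (7 and 446), and 0 and 16 in Sup (7 and 827). Array weights gave 33 and 1 levels (557 and 42), 328 and 66 abundances (12938 and 3710), and 465 and 164 in Sup (12075 and 5382). In abundance with siALKBH5#1, 57.4% of all probes were then called higher and 7.98% lower. For the level with siALKBH5#1, 238 small RNA levels (43.1%) and 5175 RNA probes in all (26.2%) were at an adjusted P below 0.05. The methods' t-test gave 0 levels with siALKBH5#1 (15), 5 and 6 abundances (97 and 238), and 3 and 13 in Sup (73 and 667), and 0 after Benjamini-Hochberg adjustment. The log2 ratio IP/Sup gave 4 and 1 levels (90 and 19), and the deposited levels 8 and 7 of 1113 (216 and 70 of 30601). With the replicate number as a block, the level counts stayed at 2 and 0 (67 and 38), abundance with siALKBH5#1 became 0 (25) and Sup with siALKBH5#1 became 4 (76).

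3 alternatives were chosen after seeing the data. A replicate block over only the groups compared gave 5 and 1 levels (121 and 73 of all probes), 1 and 7 abundances (78 and 250), and 13 and 14 in Sup (184 and 564). Median centring without siALKBH5#1 replicate 3 gave 43 levels with siALKBH5#1 (705), 68 and 22 abundances (2053 and 1372), and 71 and 72 in Sup (1970 and 2183). Keeping spots marked as outliers gave 6 abundances with siALKBH5#1 (41).

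Leaving out 1 array at a time gave 1 to 49 and 0 to 1 levels (31 to 810 and 2 to 56 of all probes) and 0 to 75 and 0 to 12 abundances (7 to 2430 and 21 to 677). In Sup it gave 0 to 83 and 1 to 24 (9 to 2223 and 30 to 1088). The highest count with siALKBH5#1 was always without siALKBH5#1 replicate 3. Without siControl replicate 2 or 3, siALKBH5#1 replicate 1 or 2, or siALKBH5#3 replicate 2 or 3, no abundance passed with siALKBH5#1. The mean share well above background, 58.7% in Sup and 25.5% in IP, was 81.7% and 50.3% with the scanner's more lenient mark (positive and significant), and 32.5% in Sup with the 95th percentile of the negative controls as the limit. Leave-one-out ranges were 57.3% to 60.1% and 24.3% to 26.3%. The gaps to matched AP1 probes kept their sign and size, at -4.27 to -3.36 points in level and -5.78 to -5.26 in IP without 1 array. Slide was not run as a term, because only siALKBH5#1 replicate 1 was scanned apart, which equals leaving it out.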
